A study of Mus musculus with 4 samples.

Results

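The 10 genes described here were 9 Toll-like receptors, Tlr1, Tlr2, Tlr3, Tlr4, Tlr6, Tlr7, Tlr8, Tlr9 and Tlr13, and Cd14, the lipopolysaccharide co-receptor. They were chosen by gene symbol from the 31053 genes of each count matrix, and all 10 were detected. The study profiled CD45 positive cells of the spinal cord of C57BL/6 mice by scRNA-seq with a droplet 3′ kit, with 1 library per condition. The sham mice had the laminectomy alone, and a library of their cells was made with the standard dissociation (standard sham, 0 dpi) and another while transcription was blocked with actinomycin D (ActD) during the dissociation (ActD sham, 0 dpi). The injured mice had a contusion of the thoracic cord, and their cells were taken at 3 dpi or 14 dpi with ActD (dpi, days post injury). Cells of several mice of both sexes went into the study, the labels do not tie cells to mice, and the titles call the sham cords healthy. Therefore no spread between mice could be measured, no difference between conditions had a replicate check, and each interval below covers counting error only.

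Toll-like receptors sense microbial products and molecules released by damaged cells. Tlr1, Tlr2, Tlr4 and Tlr6 sit at the cell surface, where Tlr2 pairs with Tlr1 or Tlr6 to bind lipopeptides and Tlr4 binds lipopolysaccharide handed over by Cd14. Tlr3, Tlr7, Tlr8, Tlr9 and Tlr13 sit in endosomes and bind nucleic acids, namely double-stranded RNA for Tlr3, single-stranded RNA for Tlr7 and Tlr8, CpG DNA for Tlr9 and bacterial ribosomal RNA for Tlr13. They signal through the adaptors Myd88 and Ticam1 to NF-kB, AP-1 and the interferon regulatory factors, and microglia and macrophages are the cells of the cord best known for them.

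The stretch just upstream of Tlr2 is shown because Tlr2 moved both with the dissociation protocol and after injury, and NF-kB acts downstream of the receptors. It is the 91 bases before the GENCODE start of the gene (sequence from RefSeq, GRCm38.p6, chr3:83841768-83841858, minus strand, 5′ to 3′), the far end of a RefSeq upstream window whose own start lies inside the GENCODE gene, and the capitals mark overlapping matches to the NF-kB consensus.
Tlr2 upstream: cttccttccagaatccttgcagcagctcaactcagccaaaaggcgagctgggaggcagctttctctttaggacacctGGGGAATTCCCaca
RefSeq windows of 250 bases upstream of a start were at hand for 7 of the 10 genes (9 windows), not for Tlr4, Tlr7 and Cd14. On either strand, the NF-kB consensus occurred in 7.25% of 32851 such windows of all genes, AP-1 (TGANTCA) in 6.75%, the interferon response core in 2.98% and the PU.1 core GAGGAAGT in 2.44%. The Tlr2 window held 2 NF-kB matches, both in the stretch above, the Tlr3 window held 1 NF-kB match and the Tlr9 window 1 AP-1 match. A Tlr6 window held 2 interferon response cores, a Tlr1 window 1 PU.1 core, and the windows of Tlr8 and Tlr13 held none of these 4 motifs. The Tlr3 window and that Tlr6 window lie wholly inside the GENCODE genes, and the other Tlr6 window, at the GENCODE start, held none of the 4. A match is a description of the letters and not evidence of binding.

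The genes lie on 7 chromosomes in GENCODE M21 (GRCm38). Tlr2 spans chr3:83836272-83841767 on the minus strand, Tlr4 chr4:66827584-66930284 on the plus strand, Tlr3 chr8:45395665-45411080 on the minus strand, Tlr9 chr9:106222598-106226883 on the plus strand and Cd14 chr18:36725067-36726798 on the minus strand. Tlr1 (chr5:64924679-64933563) and Tlr6 (chr5:64952031-64960097) are neighbours on the minus strand. Tlr13 (chrX:106143204-106160493, plus strand), Tlr8 (chrX:167242696-167264329, minus strand) and Tlr7 (chrX:167304929-167330558, minus strand) lie on the X chromosome, the last pair side by side. Tlr3 alone overlapped another annotated gene, Gm45542, on the opposite strand.

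After filters on genes, mitochondrial reads, coexpression and doublets, 5035 cells of the standard sham, 2135 of the ActD sham, 8214 at 3 dpi and 9078 at 14 dpi were kept, with median UMIs (unique molecular identifiers, counted transcripts) per cell of 7435, 9663, 8903 and 8736.5. Pairs of libraries shared 2 to 24 kept barcodes. Cells were grouped into classes by markers alone, so each name below, such as microglia, means a cluster that is microglia-like. UMIs were summed over the cells of a class in a library and expressed as CPM, relative to all UMIs of that class in the library, with an exact Poisson 95% interval. Because 3′ counting takes 1 end per transcript, CPM were not divided by gene length. The ActD sham was grouped once with the standard sham, for the comparison of protocols, and once with the injury libraries, for the comparisons after SCI. Its classes and their values therefore differ between the comparisons. Border macrophages of the ActD sham were 142 cells when grouped with the standard sham and 85 when grouped with the injury libraries. Microglia were 2420 cells of the standard sham, 1624 of the ActD sham (1449 when grouped with the standard sham), 990 at 3 dpi and 4185 at 14 dpi, and neutrophils 391, 99, 1813 and 1209. All 10 microglial markers were detected in the microglia of all 4 libraries, and their summed level was 13766 CPM in the standard sham, 25258 in the ActD sham, 5462 at 3 dpi and 11447 at 14 dpi.

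Cd14 and Tlr2 were the most abundant transcripts of the group. Over all kept cells, Cd14 gave 107834 UMIs, Tlr2 30928, Tlr7 16792 and Tlr13 15483, followed by Tlr3 with 5748, Tlr4 with 4741, Tlr1 with 4124, Tlr6 with 2426, Tlr8 with 1928 and Tlr9 with 563. Across 36 class-by-library units with at least 20 cells (the classes of the ActD sham, 3 dpi and 14 dpi as grouped together, and those of the standard sham), Cd14 ranged from 5.65 to 2153 CPM with a median of 137, and Tlr2 from 3.59 to 301 with a median of 56.9. Both were detected in all 36 units, which leave out the clusters that got no name. At the other end, Tlr9 reached at most 6.38 CPM and had no UMI in 12 of the 36 units, and Tlr8 had none in 10.

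**Figure D1:**
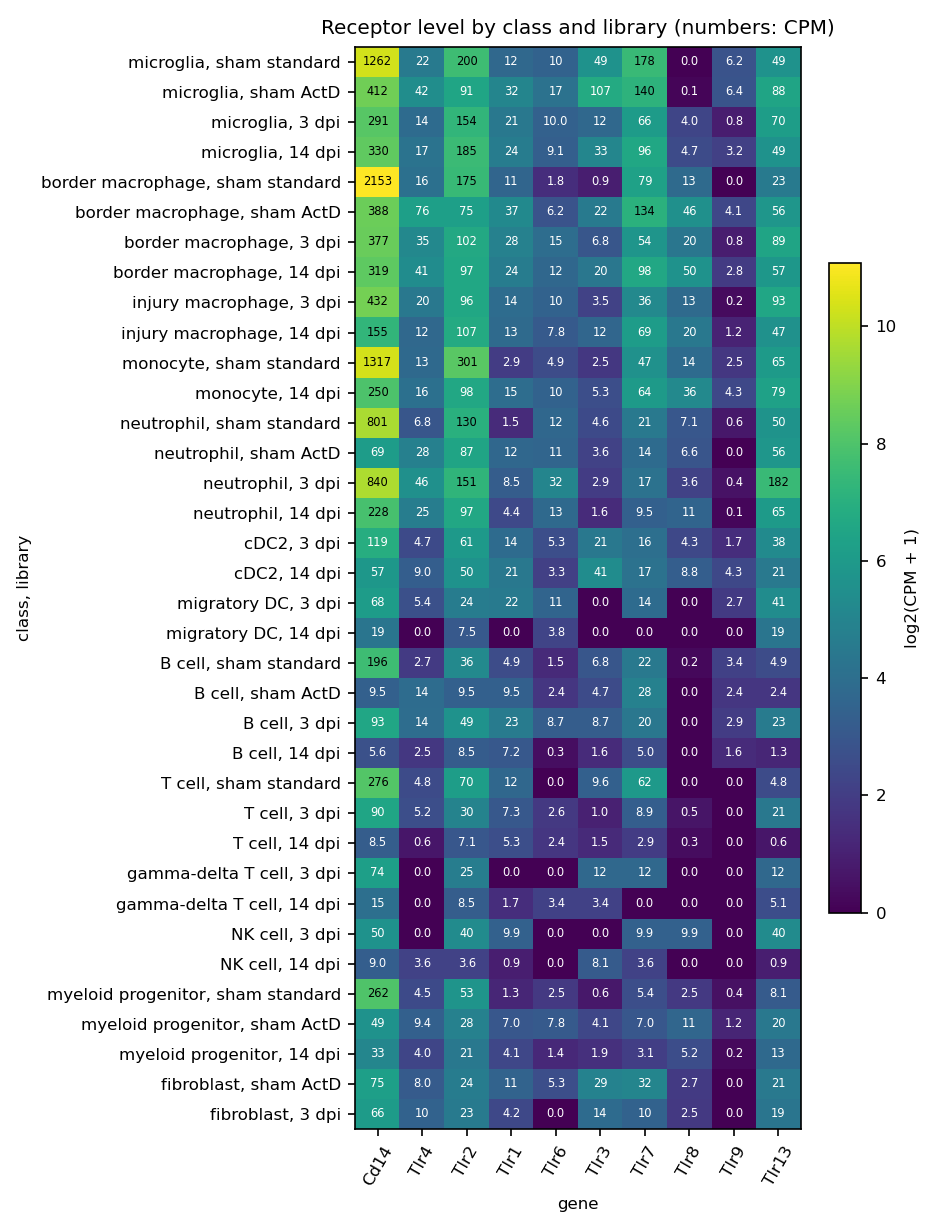
Level of each receptor gene (columns) in each class of each library (rows), as log2(CPM + 1) in color with the CPM printed in each cell; 1 library per condition. Cd14 is the brightest column, up to 2153 CPM in border macrophages of the standard sham, and the Tlr9 column stays at or below 6.38 CPM.

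The classes carried different receptors. In the ActD sham, Cd14 was 412 CPM in microglia and 388 in border macrophages, the resident macrophages of the meninges and vessels, and these levels did not differ beyond their intervals (403 to 422 and 349 to 429). At 3 dpi, neutrophils led the named classes with 840 CPM. Next were injury macrophages, the class marked by Arg1, Gpnmb and Spp1, with 432 and border macrophages with 377. The injury macrophages pooled clusters with unlike Cd14 levels, given further below. Cluster 4, which was among them, lay above the neutrophil interval (814 to 868), and no monocyte class was named at 3 dpi. At 14 dpi, microglia (330) and border macrophages (318) were again level at the top. Tlr4 was led by border macrophages in the ActD sham (75.6 CPM) and at 14 dpi (40.5), while at 3 dpi neutrophils (45.5) and border macrophages (35.0) had overlapping intervals. Tlr2 was at similar levels in microglia (154) and neutrophils (151) at 3 dpi, and was highest in microglia at 14 dpi (185). Tlr6 reached its highest level in neutrophils at 3 dpi (31.8).

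Among the endosomal receptors, Tlr3 was highest in microglia among the named classes of both shams. No dendritic class was named in either sham, so none was ranked there, and the 49 ActD sham cells of the dendritic cluster got no name. After injury Tlr3 was highest in the class of conventional dendritic cells. It was at 20.9 CPM there at 3 dpi, where its interval overlapped that of the next class, and at 40.5 at 14 dpi. Tlr7 was shared by microglia and border macrophages, with 95.8 and 98.5 CPM at 14 dpi. Tlr8 marked a different set of cells. It was 45.6 CPM in border macrophages of the ActD sham, 19.5 there at 3 dpi and 49.7 at 14 dpi, and it was 36.1 in monocytes at 14 dpi and 13.4 and 20.3 in injury macrophages at 3 and 14 dpi. Tlr13 was 87.7 CPM in microglia of the ActD sham, 182 in neutrophils at 3 dpi and 79.4 in monocytes at 14 dpi.

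Most microglia showed at most 1 of the receptors at matched depth. After each cell was thinned to 1000 UMIs, 38.5% of ActD sham microglia, 55.8% at 3 dpi and 50.6% at 14 dpi had a UMI of none of the 10 genes, against 27.0% in the standard sham. A UMI of 2 or more of the genes was found in 19.8%, 10.2%, 13.9% and 24.5% of these cells. A Cd14 UMI was found in 35.5% of ActD sham microglia (95% Clopper-Pearson interval 33.2 to 37.9), 21.9% at 3 dpi (19.4 to 24.7) and 24.8% at 14 dpi (23.5 to 26.2), and without thinning in 93.0%, 83.5% and 81.8%. Thinning left out 1 cell each in the ActD sham and at 3 dpi. T cells, which should lack Cd14, had thinned shares of 9.03% at 3 dpi and 0.638% at 14 dpi, at median depths of 3639 and 5253 UMIs against 20394 and 10925 in microglia. A Cd14 share near that of T cells in the same library is read as background and not as expression.

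The first comparison was of the dissociation protocols in the sham cord. In microglia, Cd14 was at 1262 CPM with the standard protocol and 429 with ActD, 2.94-fold higher (log2 1.56, 95% interval 1.52 to 1.60). Tlr2 was at 200 and 88.9 CPM, 2.25-fold higher (log2 1.17, 1.08 to 1.26). Cd14 and Tlr2 were thus higher in the sum of all microglia, with the calls kept in 13 of 16 and 12 of 16 alternatives. The rise was uneven over their clusters, as given below. Tlr4 was at 21.7 and 44.9 CPM (log2 −1.05, −1.23 to −0.87), Tlr1 at 12.4 and 32.7 (log2 −1.40, −1.63 to −1.17) and Tlr3 at 49.3 and 118 (log2 −1.25, −1.37 to −1.14). These 3 receptors fell with the standard protocol. A gene was called higher or lower when it differed at least 2-fold, its interval left out no change and it had at least 20 UMIs over the 2 libraries. By that rule 2 of the 9 receptors tested were higher, where 6.83% of all 11804 genes tested were, and 3 were lower, where 21.6% were.

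The other receptors of these microglia did not pass that rule. Tlr6 was at 10.2 CPM with the standard protocol and 18.04 with ActD, Tlr13 at 48.9 and 90.7, Tlr7 at 178 and 144, and Tlr9 at 6.19 and 6.28 (log2 −0.02, and 0.51 with the TMM factors described next). Tlr8 had no UMI and 1 UMI. The median log2 ratio of all genes was −0.54 and that of the receptors −0.83, and the changes are read relative to it. With TMM factors, a scaling that sets most genes level and here brought the median of all genes to −0.01, Cd14 (2.09) and Tlr2 (1.70) were called and Tlr4 (−0.52), Tlr1 (−0.87) and Tlr3 (−0.72) were not, and 10.2% of all genes were higher and 7.41% lower.

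The protocol moved with immediate early genes (IEGs), the genes that dissociation induces. The 16 listed IEGs summed to 48191 CPM in microglia with the standard protocol and 1066 with ActD, and 16 of 16 were called higher. Their part in the changes of the receptors was not tested. Cell Ranger was version 3.0.1 in the matrix header of the standard sham and 3.1.0 in that of the ActD sham, and this cannot be told apart from the protocol. The microglia of the protocols also lay in different clusters. Cluster 1 of this grouping, led by Gpr84, Tnfsf9 and Il1a, held 804 of the 2420 standard cells and 121 of the 1449 ActD cells, with Cd14 at 2325 and 429 CPM and Tlr2 at 281 and 122. In the clusters with P2ry12 among their 10 leading genes (0 and 2) Cd14 was at 619 and 425 CPM and at 592 and 462, and there the log2 ratios of Cd14 (0.50) and Tlr2 (0.85) were not called and 2 receptors were.

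Cd14 was also higher with the standard protocol in other myeloid classes. In neutrophils Cd14 was at 801 CPM with the standard protocol and 67.5 with ActD, 11.9-fold higher (log2 3.57, 3.29 to 3.86). Tlr7 was also called higher (21.2 and 9.21 CPM), and Tlr4 (6.77 and 23.9, 22 and 39 UMIs) and Tlr1 (1.54 and 12.3, 5 and 20 UMIs) were called lower. Of the 8 receptors tested in neutrophils 2 were higher and 2 lower, where 16.9% and 7.38% of all 7355 genes were. The Tlr7 rise rested on 69 and 15 UMIs and kept its call in 7 of 14 alternatives. In border macrophages Cd14 was at 2153 and 384 CPM (log2 2.49, 2.36 to 2.61) and Tlr2 at 175 and 75.6 (log2 1.21, 0.89 to 1.55). Tlr4 was at 15.8 and 56.4 CPM there (log2 −1.84, −2.65 to −1.10), Tlr1 at 11.4 and 37.2, Tlr3 at 0.877 (1 UMI) and 36.6, Tlr8 at 13.2 and 38.4, Tlr13 at 22.8 and 55.2 and Tlr7 at 78.9 and 112. The border macrophage cluster of this grouping held 142 ActD cells and had H2-Eb1, H2-Aa and H2-Ab1 beside Mrc1 among its leading genes. In the 85 ActD cells of the class as grouped with the injury libraries, Tlr3 was at 21.8 CPM and Tlr4 at 75.6. In monocytes Cd14 was at 1317 and 89.0 (log2 3.89, 3.46 to 4.35) and Tlr2 at 301 and 38.4 (log2 2.97, 2.31 to 3.71), with 28 cells in the ActD sham. IEG sums in neutrophils were 10391 and 2834 CPM, in border macrophages 30680 and 1702 and in monocytes 13451 and 3711, and their part in these results was not tested. Cd14 was also at 276 CPM in T cells and 196 in B cells of the standard sham, which should lack it. ActD sham B cells of the same grouping had no Cd14 UMI (19.9-fold higher with the standard protocol, against 3 counts allowed with ActD). The part of free RNA in the other classes was not tested.

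**Figure D2:**
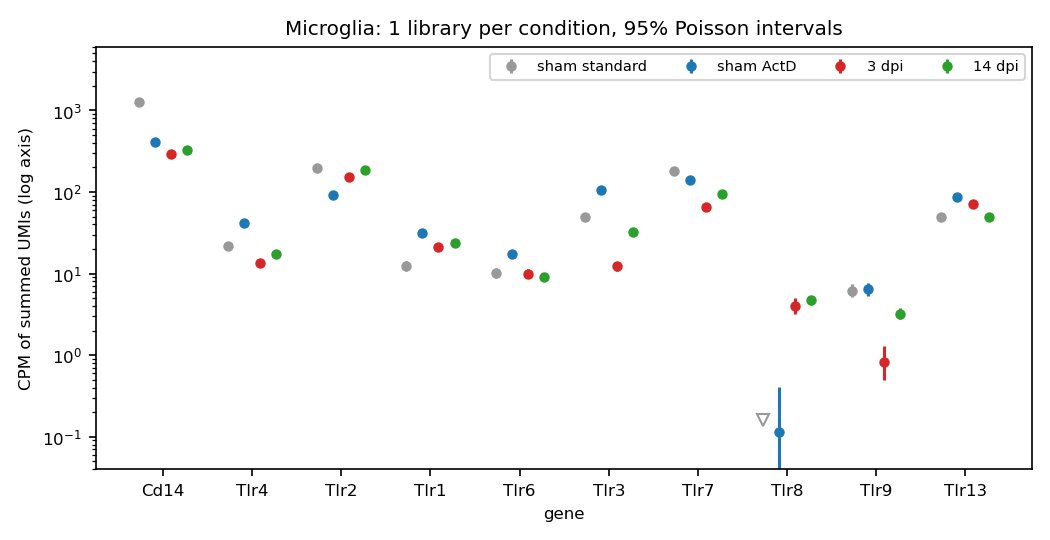
CPM of each receptor gene in microglia (log axis) in the 4 libraries (colors, 1 per condition), with exact Poisson 95% intervals that are mostly smaller than the points; the open triangle marks 0 UMIs, drawn at the level of 3 counts. Tlr3 falls from 107 CPM in the ActD sham to 12.2 at 3 dpi and is at 32.8 at 14 dpi, and Tlr8 goes from 0.114 CPM in the ActD sham to 4.03 and 4.71.

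The second question was how the receptors of microglia changed after SCI, with the same ActD protocol. Tlr3 was at 107 CPM in the ActD sham, 12.2 at 3 dpi and 32.8 at 14 dpi. It fell 8.72-fold at 3 dpi (log2 −3.12, −3.31 to −2.94) and 3.25-fold at 14 dpi (log2 −1.70, −1.80 to −1.61), and at 14 dpi it was 2.68-fold higher than at 3 dpi (log2 1.42, 1.23 to 1.61), a call kept in 14 of 16 alternatives. No intervals overlapped between the 3 libraries. Both falls from the sham were kept in 16 of 16 processing alternatives, with log2 ratios of −3.33 to −1.95 at 3 dpi and −1.80 to −1.13 at 14 dpi.

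Tlr4 was at 41.9 CPM in the ActD sham, 13.6 at 3 dpi and 17.5 at 14 dpi. It fell 3.07-fold (log2 −1.62, −1.82 to −1.42) and 2.40-fold (log2 −1.26, −1.40 to −1.12). Tlr7 was at 140, 65.8 and 95.8 CPM and was called lower at 3 dpi (log2 −1.09, −1.18 to −0.99), but not at 14 dpi, and its call at 3 dpi was kept in 11 of 16 alternatives. Tlr9, already sparse, was at 6.38, 0.824 (18 UMIs) and 3.23 CPM, 7.74-fold lower at 3 dpi (log2 −2.95, −3.76 to −2.23), and then 3.91-fold higher at 14 than at 3 dpi (log2 1.97, 1.26 to 2.76).

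Tlr2 moved the other way. It was at 90.9 CPM in the ActD sham, 154 at 3 dpi and 185 at 14 dpi, with no overlap of the intervals. The ratio was 1.70-fold at 3 dpi (log2 0.76, 0.68 to 0.85), short of the threshold, and 2.04-fold at 14 dpi (log2 1.03, 0.95 to 1.10), just past it. The call at 14 dpi was kept in 10 of 16 alternatives, with log2 ratios from 0.62 to 1.60. Its partners did not follow: Tlr1 was at 31.6, 20.9 and 24.0 CPM and Tlr6 at 17.3, 9.98 and 9.09, and neither was called.

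Cd14 and Tlr13 were not called in microglia at either time. Cd14 was at 412, 291 and 330 CPM (log2 −0.50 at 3 dpi and −0.32 at 14 dpi) and Tlr13 at 87.7, 70.3 and 49.0 (log2 −0.32 and −0.84). These ratios lie near the median of all genes, which was −0.51 at 3 dpi and −0.54 at 14 dpi. With TMM factors the signs turned for Tlr13 at 3 dpi (0.14) and for Cd14 (0.25), Tlr1 (0.17) and Tlr7 (0.02) at 14 dpi, so no direction is given for them.

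At 3 dpi, 1 of the 10 receptors was called higher, Tlr8, where 14.4% of all 12436 genes were, and 4 were lower, where 32.4% were. At 14 dpi, Tlr2 and Tlr8 were higher, where 5.55% of 12659 genes were, and Tlr3 and Tlr4 lower, where 19.1% were. Between 14 and 3 dpi, Tlr3 and Tlr9 were higher, where 11.0% of 12848 genes were, and none of the 10 was lower, where 15.2% were. The median log2 ratio of the receptors was −0.69 in both comparisons with the sham and 0.24 between the injury times, where that of all genes was 0.01. With TMM factors the shares higher and lower were 21.4% and 18.8% at 3 dpi and 10.6% and 6.28% at 14 dpi. Under them, Tlr7 lost its call at 3 dpi (−0.62), Tlr2 gained one (1.23), and Tlr4 lost its call at 14 dpi (−0.69). Both comparisons with the sham share the ActD sham library.

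**Figure D3:**
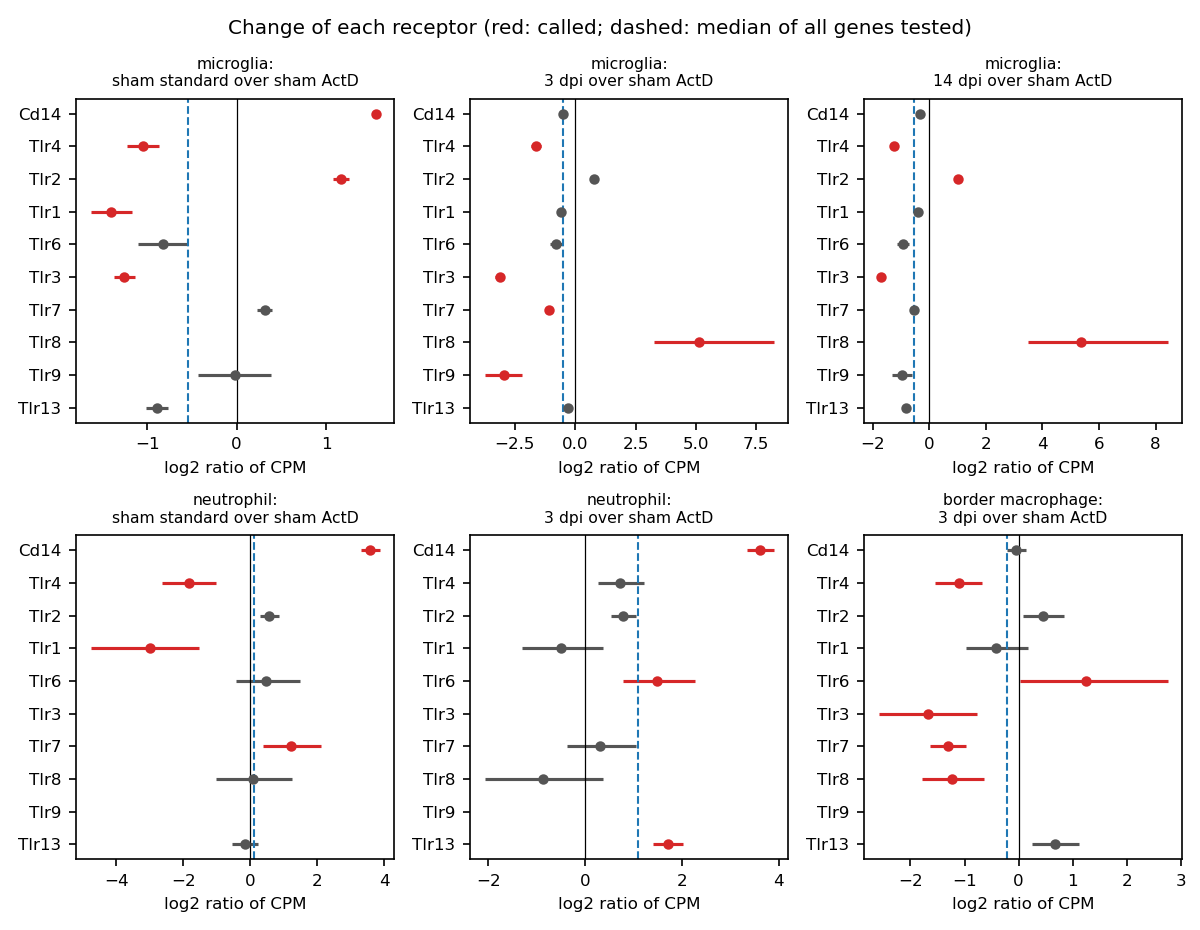
Log2 ratio of CPM with its exact 95% interval for each receptor gene tested, in 6 comparisons (panels), with called genes in red, the others in gray and the median of all genes tested as a dashed line; 1 library per condition. In microglia Tlr3 and Tlr4 lie left of the dashed line at both 3 and 14 dpi and Tlr8 far to its right, and in neutrophils Cd14 lies near 3.6 in both panels.

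Several measures moved with these results. The summed level of the 9 injury macrophage markers in microglia was 107 CPM in the ActD sham (1 of 9 at 0), 30605 at 3 dpi and 6173 at 14 dpi (none at 0), and that of the 10 microglial markers was lowest at 3 dpi, as given above. These injury macrophage markers are not particular to macrophages. The study listed Fn1 and Fabp5 among the core genes of microglial subsets after injury, and it stained Spp1 in microglia at 3 dpi. Their sum is therefore not a measure of macrophage RNA alone. The same injury macrophage sum was 7365 CPM in T cells and 8417 in B cells at 3 dpi, against 18.9 in ActD sham B cells. IEG sums in microglia were 1031, 5472 and 778 CPM. Male cells were 76.3% of the microglia with a sex call at 3 dpi and 46.0% and 46.7% in the ActD sham and at 14 dpi. Their part in the results was not tested. The matrix header versions differ between the ActD sham and 3 dpi, which cannot be told apart from injury, and are the same for the ActD sham and 14 dpi.

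Microglia changed clusters after injury, so Tlr3, Tlr2, Cd14, Tlr4, Tlr7 and Tlr8 were also read within clusters. The ActD sham microglia lay mostly in cluster 3, led by P2ry12 (782 cells), and cluster 5, led by Siglech (629 cells). At 3 dpi, 508 of the 990 cells lay in cluster 9, led by the cell cycle genes Cenpf and Mki67, and 348 in cluster 0, led by Lpl, Apoc1 and Cst7. At 14 dpi, 2656 of 4185 lay in cluster 0. The receptors were left out of the genes used for clustering.

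Tlr3 was lower at 3 dpi than in the ActD sham in each of these 4 clusters. In cluster 3 it was at 106, 30.4 and 51.4 CPM in the ActD sham, at 3 dpi and at 14 dpi, and in cluster 5 at 128, 26.3 and 54.7. In cluster 0 it was at 45.5, 11.4 and 24.1, and in cluster 9 at 69.2, 10.8 and 21.6. The intervals of the sham and 3 dpi did not overlap in any of the 4. Cluster 18, led by the interferon-induced genes Cxcl10 and Rsad2, was microglia-like at 14 dpi alone, with 110 cells of that library. Tlr3 was at 125 CPM there (108 to 145) and Tlr2 at 305 (278 to 335), outside the intervals of the other 4 microglial clusters at 14 dpi.

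Tlr2 lay above the sham interval at both times in cluster 3 (81.7, 150 and 116 CPM), cluster 5 (90.0, 175 and 147) and cluster 9 (63.5, 142 and 149). In cluster 0 it was already at 159 in the sham, the interval at 3 dpi (174) overlapped it and that at 14 dpi (197) did not. Cd14 was at 463, 197 and 325 CPM in cluster 3, and at 383, 358 and 360 in cluster 0.

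Tlr4 was at 47.9, 13.3 (7 UMIs) and 24.997 CPM in cluster 3, 42.0, 21.6 and 28.0 in cluster 5, 28.3, 11.4 and 14.7 in cluster 0, and 27.1, 14.2 and 16.6 in cluster 9. Its interval at 3 dpi lay below that of the sham in each of the 4. Tlr7 was at 147, 83.5 and 105 CPM in cluster 3 and 144, 68.5 and 106 in cluster 5. It was at 111, 75.6 and 93.7 in cluster 0 and 111, 59.7 and 78.5 in cluster 9, also below the sham interval at 3 dpi in each. Levels within a cluster were not set against all genes of that cluster. In the whole class, the median log2 ratio of all genes at 3 dpi was −0.51. When only clusters 3 and 5 were used, 3 receptors instead of 5 were called at 3 dpi and 1 instead of 4 at 14 dpi. Tlr7 at 3 dpi (log2 −0.99), Tlr4 (−0.76) and Tlr2 (0.62) at 14 dpi, and Tlr8 at both times were then not called.

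**Figure D4:**
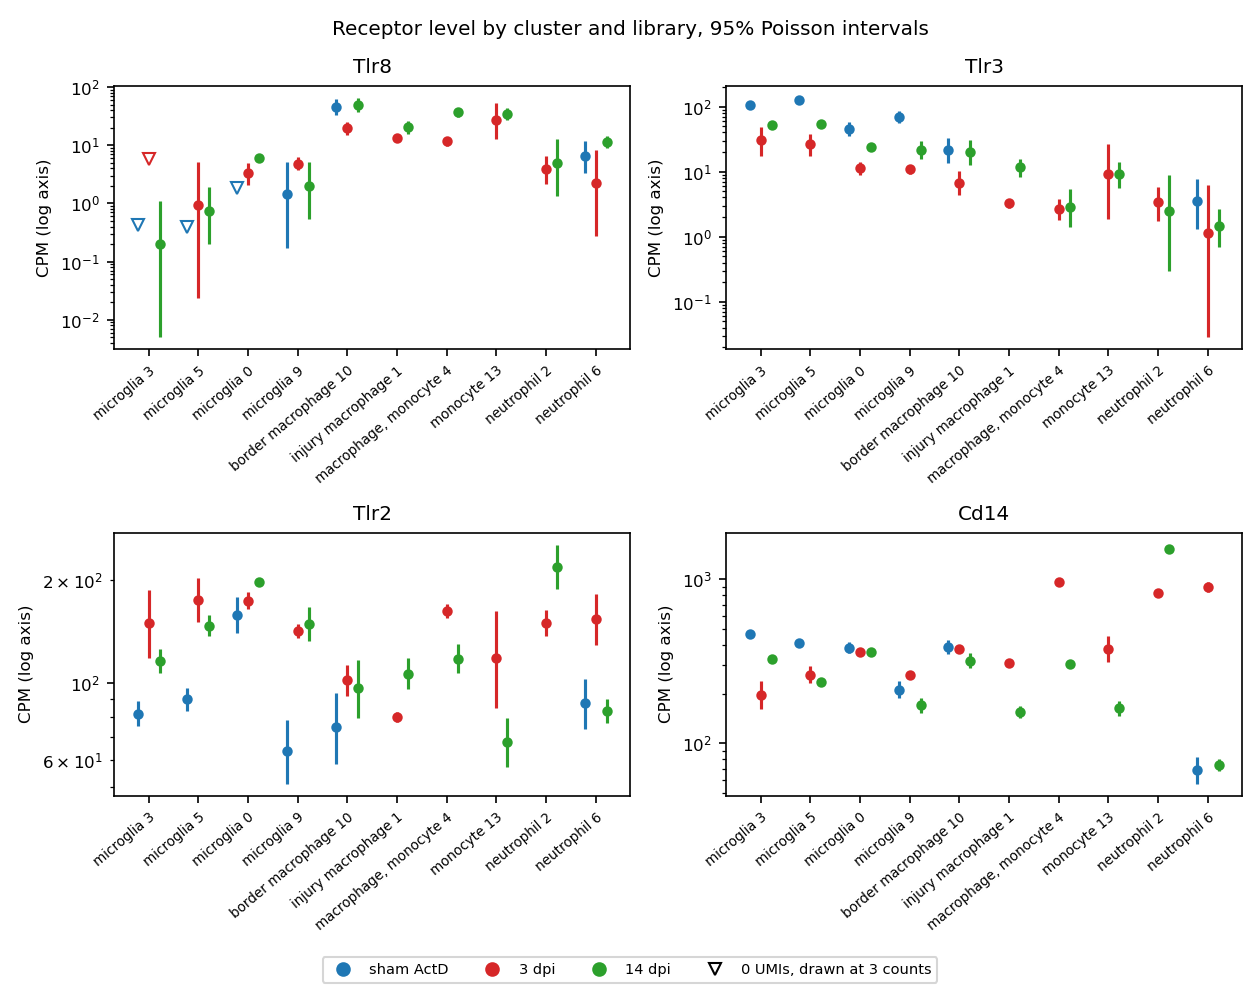
CPM (log axis) of Tlr8, Tlr3, Tlr2 and Cd14 in numbered clusters of microglia, macrophages, monocytes and neutrophils for the ActD sham, 3 dpi and 14 dpi, with exact Poisson 95% intervals; open triangles mark 0 UMIs, drawn at the level of 3 counts. Tlr3 is lower at 3 dpi than in the ActD sham in all 4 microglial clusters, Tlr8 at 14 dpi is higher in cluster 0 than in clusters 3 and 5, and Cd14 at 3 dpi is near 800 to 900 CPM in both neutrophil clusters.

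Tlr8 was hardly detected in sham microglia and was detected after SCI. It had no UMI in 2420 standard sham microglia, which allows up to 0.159 CPM, and 2 UMIs (0.114 CPM) in 1624 ActD sham microglia. It had 88 UMIs (4.03 CPM, 3.23 to 4.97) at 3 dpi and 241 UMIs (4.71 CPM, 4.14 to 5.35) at 14 dpi. The log2 ratios to the ActD sham were 5.14 (3.25 to 8.21) and 5.37 (3.50 to 8.42), wide because the sham held 2 UMIs, and the levels at 3 and 14 dpi did not differ beyond the interval (log2 0.23, −0.13 to 0.59). The call was kept in 12 of 16 alternatives at 3 dpi and 14 of 16 at 14 dpi, and was lost in both when clusters 3 and 5 alone were used.

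The Tlr8 UMIs were unevenly spread over the clusters. In the ActD sham, both UMIs lay in cluster 9, and clusters 0, 3 and 5 had none in 139, 782 and 629 cells. Within cluster 9, Tlr8 was found in 2 of 74 cells in the ActD sham, 50 of 508 at 3 dpi and 4 of 110 at 14 dpi. The part of the change in cluster make-up in the ratios of the whole class was not tested. At 14 dpi, cluster 0 held 224 of the 241 (6.00 CPM, 5.24 to 6.84) and the interferon-led cluster 18 held 8 in 110 cells (5.53 CPM, 2.39 to 10.9), levels that did not differ beyond their intervals, and clusters 3, 5 and 9 held 1, 4 and 4. At 3 dpi, cluster 9 held 64 and cluster 0 held 23 of the 88, cluster 5 held 1 and cluster 3 none. The 71 cells with a Tlr8 UMI at 3 dpi had a median depth of 34363 UMIs against 18948 in the 919 others, and the 197 at 14 dpi had 14926 against 10759.5. At 14 dpi, P2ry12 was detected in 73.1% of the cells with a Tlr8 UMI and 81.2% of those without, and the injury macrophage markers summed to 10769 and 5848 CPM. Some of those markers are also genes of microglia after injury, as given above. Ms4a7, a marker of border and injury macrophages, was at 313 and 107 CPM at 14 dpi, and at 182 and 67.1 at 3 dpi. T cells at 3 dpi, which carried the injury macrophage markers at 7365 CPM, had 1 Tlr8 UMI (0.523 CPM) in 487 cells. NK cells at 3 dpi, with those markers at 8337 CPM, were at 9.95 CPM (0.252 to 55.4). The NK cell interval holds the microglial level, so the NK value cannot be set against it, and the T cell value rests on 1 UMI. The part of macrophage RNA in the microglial Tlr8 UMIs was not tested.

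Neutrophils, the first blood cells to arrive after injury, had another pattern. Cd14 was at 68.9 CPM in the ActD sham, 840 at 3 dpi and 228 at 14 dpi. It rose 12.2-fold at 3 dpi (log2 3.61, 3.34 to 3.89) and was 3.69-fold lower at 14 than at 3 dpi (log2 −1.88, −1.97 to −1.80). The rise was kept in 15 of 15 alternatives. The thinned share of cells with a Cd14 UMI was 8.08%, 46.2% and 17.6%, and 46.5%, 65.9% and 41.1% without thinning, at median depths of 14392, 2293 and 5075 UMIs. Thinning left out 7 neutrophils at 3 dpi and 1 at 14 dpi.

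Tlr13 was at 55.7, 182 and 64.5 CPM in neutrophils, 3.26-fold higher at 3 dpi (log2 1.71, 1.39 to 2.03) and then 2.82-fold lower at 14 dpi (log2 −1.49, −1.66 to −1.33). Tlr6 was at 11.4 (19 UMIs), 31.8 and 12.95 CPM, with log2 ratios of 1.48 (0.79 to 2.26) and −1.30 (−1.68 to −0.92). Tlr8 was at 6.59, 3.59 and 10.8 CPM and was called higher at 14 than at 3 dpi (log2 1.58, 0.80 to 2.46). The other surface receptors were not called at 3 dpi or between 14 and 3 dpi. Tlr2 was at 87.4, 151 and 97.4 CPM, Tlr4 at 27.5, 45.5 and 24.9, and Tlr1 at 11.98, 8.52 and 4.40, with a log2 ratio of 14 dpi to the sham of −1.44 (−2.28 to −0.57, 34 and 20 UMIs). Tlr7 was at 13.8, 17.0 and 9.46 CPM. With TMM factors the signs turned for Tlr4 (−0.13), Tlr2 (−0.07) and Tlr7 (−0.55) at 3 dpi and for 5 receptors between 14 and 3 dpi, so no direction is given for them.

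The neutrophil transcriptome shifted as a whole. At 3 dpi, 3 of the 8 receptors tested were higher, where 49.6% of all 9340 genes were, and none was lower, where 6.98% were. The median log2 ratio was 1.09 for all genes and 0.76 for the receptors, so among the receptors Cd14 (3.61) stood farthest above the shift, and Tlr13 (1.71) and Tlr6 (1.48) lay closer to it. With TMM factors, which brought that median to 0.23 and the shares to 23.5% and 16.4%, Cd14 kept its call (2.75), Tlr13 (0.85) and Tlr6 (0.63) lost theirs, and Tlr1 (−1.35) and Tlr8 (−1.73) were called lower. Between 14 and 3 dpi, 1 of the 9 receptors tested was higher, where 5.66% of 9955 genes were, and 3 were lower, where 54.8% were, with medians of −1.15 for all genes and −0.91 for the receptors. With TMM factors the shares were 19.9% and 19.9%, and of the 4 calls that of Tlr8 (2.75) alone was kept, since Cd14 was then at −0.71, Tlr13 at −0.32 and Tlr6 at −0.13. The IEG sum in neutrophils was 2718, 20314 and 6006 CPM in the 3 libraries, the injury macrophage marker sum 1347, 11014 and 1569, and the sum of the neutrophil markers themselves 411812, 56055 and 423432. Their part in the Cd14 rise and in the shift of all genes was not tested.

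The 2 neutrophil clusters were not alike in Cd14. Cluster 6, led by Retnlg, was at 68.9 CPM in the ActD sham, 893 at 3 dpi and 74.1 at 14 dpi. Cluster 2, led by Il1b and G0s2 and described after injury only, was at 827 at 3 dpi and 1534 at 14 dpi, where it was 316 of the 1209 neutrophils. Tlr13 followed the same lines, at 55.7, 183 and 50.1 CPM in cluster 6 and 181 and 187 in cluster 2. Tlr4 was at 103 CPM in cluster 2 at 14 dpi, above the 43.6 of that cluster at 3 dpi and the 15.6 of cluster 6 at 14 dpi. At 14 dpi, Cd14, Tlr13 and Tlr4 were thus lower in cluster 6, which then held 893 cells, than in cluster 2. Cluster 6 held 282 cells at 3 dpi. At a finer clustering, the cluster led by Retnlg held 78 cells of the ActD sham, 34 at 3 dpi and 667 at 14 dpi. Cluster 6 may therefore not hold the same kind of cell at each time, and its part in the change of the class was not tested.

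In border macrophages 3 endosomal receptors, Tlr3, Tlr7 and Tlr8, were lower at 3 dpi, while Tlr13 was not called (56.0, 88.7 and 57.1 CPM, log2 0.67 at 3 dpi, 0.24 to 1.11), Tlr9 had 4 and 3 UMIs and was not tested, and Cd14 was not called. Cd14 was at 388, 377 and 318 CPM in the ActD sham, at 3 dpi and at 14 dpi (log2 −0.04 at 3 dpi, −0.21 to 0.13, and 0.31 with TMM factors). Tlr7 was at 134, 54.0 and 98.5 CPM, Tlr8 at 45.6, 19.5 and 49.7 and Tlr3 at 21.8, 6.78 and 20.3. Each was called lower at 3 dpi, Tlr7 with log2 −1.31 (−1.64 to −0.97), Tlr8 with −1.23 (−1.79 to −0.65) and Tlr3 with −1.68 (−2.59 to −0.76), and at 14 dpi the ratios to the sham were −0.44 (−0.82 to −0.06), 0.12 (−0.48 to 0.73) and −0.10 (−1.03 to 0.83). Tlr4 was at 75.6, 35.0 and 40.5 CPM and was also called lower at 3 dpi (log2 −1.11, −1.54 to −0.67). Tlr6 was called higher at 3 dpi from 6 and 52 UMIs (log2 1.24, 0.02 to 2.75).

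Of the 9 receptors tested in border macrophages at 3 dpi 1 was higher, where 10.2% of 9279 genes were, and 4 were lower, where 18.5% were. With TMM factors those shares were 17.1% and 11.2%, and 3 receptors were called, Tlr3 (−1.33), Tlr6 (1.59) and Tlr13 (1.02). The class held 85, 268 and 130 cells, its injury macrophage marker sum was 733, 24030 and 2894 CPM, and its calls were the least stable, with that of Tlr4 kept in 6 of 13 alternatives and that of Tlr6 in 7 of 13. Male cells were 34.7%, 72.1% and 52.3% of the border macrophages with a sex call, and Tlr7, Tlr8 and Tlr13 lie on the X chromosome. The part of the macrophage markers and of sex was not tested.

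Injury macrophages, which no ActD sham cluster was named, carried Cd14 at 432 CPM at 3 dpi and 155 at 14 dpi (log2 −1.48, −1.61 to −1.36). The class was clusters 1, 4 and 18 at 3 dpi (3534 cells) and cluster 1 alone at 14 dpi (251 cells), and within cluster 1 Cd14 was at 310 and 155 CPM. Tlr3 was at 3.50 and 11.6 CPM (log2 1.73, 1.202 to 2.228), Tlr7 at 36.0 and 69.1, Tlr13 at 93.4 and 47.3 and Tlr2 at 96.0 and 107. At 3 dpi, Cd14 was at 956 CPM in cluster 4, which was led by Vcan, had Thbs1 and Ccr2 but not Arg1, Gpnmb or Spp1 among its 10 leading genes, and held 1065 cells. At 14 dpi cluster 4 was monocyte-like, with Cd14 at 304 CPM and Tlr8 at 37.1.

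Among dendritic cells, Tlr3 marked a subset. At a finer clustering, chosen after the clusters were seen, cDC1, the cross-presenting dendritic cells marked by Xcr1 and Clec9a, were 57 cells at 3 dpi and 52 at 14 dpi. Their Tlr3 level was 146 and 207 CPM, against 4.70 and 9.38 in cDC2 of the same libraries (log2 4.96, 4.22 to 5.76, and 4.47, 3.90 to 5.08). Migratory dendritic cells, marked by Ccr7, had no Tlr3 UMI at either time, so the cDC1 level was at least 17.9-fold and 18.3-fold higher. Tlr11 and Tlr12, the profilin receptors, were at 16.6 and 18.5 CPM in cDC1 at 3 dpi and at 23.9 and 28.3 at 14 dpi, while in cDC2 they were at 0 UMIs and 0.989 CPM (4 UMIs) and at 1.21 (4 UMIs) and 3.33. Tlr12 in pDC had no UMI at 3 dpi, which allows up to 23.8 CPM, and was at 43.4 CPM at 14 dpi (13 UMIs, 23.1 to 74.2). The allowed level lies inside that interval, so the times could not be told apart.

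**Figure D5:**
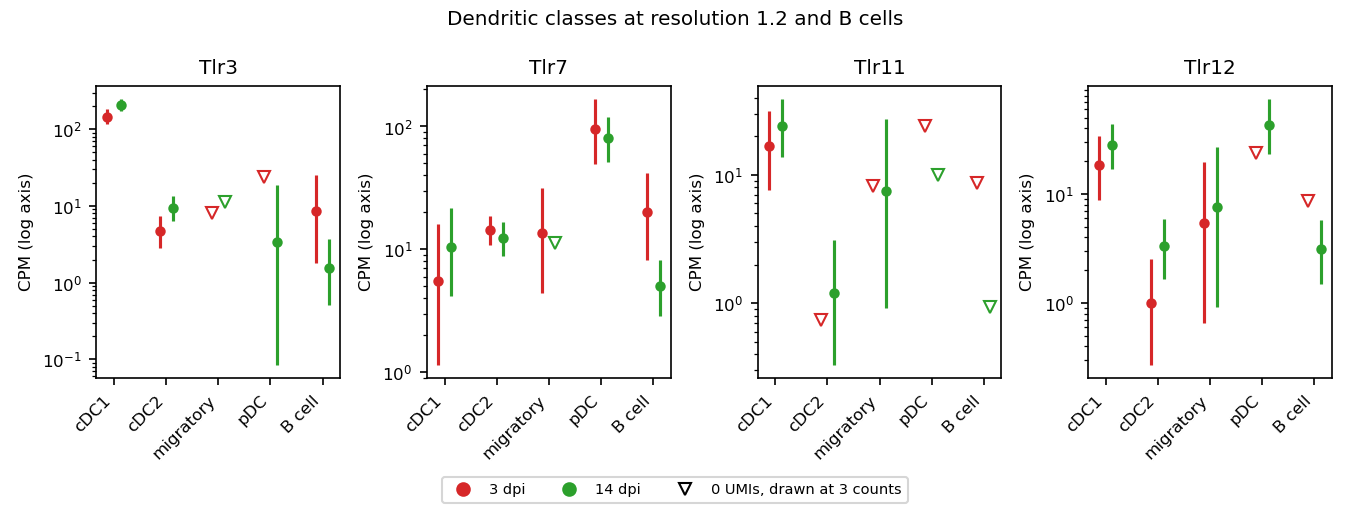
CPM (log axis) of Tlr3, Tlr7, Tlr11 and Tlr12 in dendritic classes of the finer clustering and in B cells at 3 and 14 dpi, with exact Poisson 95% intervals; open triangles mark 0 UMIs, drawn at the level of 3 counts. Tlr3 is at 146 and 207 CPM in cDC1 and below 10 in cDC2, and Tlr7 is highest in pDC, at 95.3 and 80.1.

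Plasmacytoid dendritic cells (pDC), the interferon-producing cells known for Tlr7 and Tlr9, were 21 cells at 3 dpi and 40 at 14 dpi. Tlr7 was at 95.3 and 80.1 CPM, against 14.3 and 12.4 in cDC2 (log2 2.73, 1.70 to 3.65, and 2.69, 1.90 to 3.45). Tlr9 had no UMI at 3 dpi, which allows up to 23.8 CPM, and 1 UMI at 14 dpi. So at this depth the Tlr9 level of pDC could not be told from that of cDC2, at 1.98 and 4.54 CPM.

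Lymphoid cells held few receptor transcripts. In B cells, Tlr7 was at 28.4 CPM (12 UMIs) in the ActD sham, 20.3 (7 UMIs) at 3 dpi and 5.02 (16 UMIs) at 14 dpi. It was called lower at 14 dpi (log2 −2.50, −3.67 to −1.29), the single call among 4 receptors tested, where 8.58% of 8942 genes were lower, and none was higher, where 9.58% were. At 14 dpi the class held 284 cells of cluster 11, led by Igkc, with Tlr7 at 16.3 CPM, and 201 cells of cluster 16, which expressed the precursor gene Igll1, with 1 UMI (0.441 CPM). With cluster 11 alone none of the receptors was called, and with all 4 libraries grouped together the ratio was 0.18. Cd14 in B cells was at 9.47 CPM in the ActD sham, 92.6 at 3 dpi and 5.65 at 14 dpi, and in T cells at 90.4 and 8.52 at 3 and 14 dpi. The injury macrophage sums of those cells were 18.9, 8417 and 233 CPM in B cells and 7365 and 339 in T cells, and their part in these values was not tested. Male cells were 22.4% of the B cells with a sex call in the ActD sham, 67.3% at 3 dpi and 89.7% at 14 dpi. The part of sex in the values of Tlr7, which is X-linked, was not tested.

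Because Tlr7, Tlr8 and Tlr13 lie on the X chromosome, their levels were compared between female and male microglia of each library, called by Xist and Y-linked transcripts. Tlr7 was at 178 and 182 CPM in female and male cells of the standard sham, 142 and 138 in the ActD sham, 67.9 and 67.8 at 3 dpi and 99.2 and 90.0 at 14 dpi. The mean log2 ratio was 0.04 ± 0.07 (SD, n = 4 libraries), higher in female cells in 3 of 4 libraries (exact sign-flip test, two-sided, p = 0.375, adjusted 0.75). That of Tlr13 was −0.02 ± 0.27 (exact sign-flip test, p = 1, adjusted 1), also higher in female cells in 3 of 4 libraries. For Tlr13 the libraries were not alike. Its log2 ratio was −0.41 (−0.62 to −0.20) in the standard sham and 0.18 (0.02 to 0.34) in the ActD sham. It was 0.15 (−0.05 to 0.35) at 3 dpi and 0.02 (−0.11 to 0.15) at 14 dpi. With 4 libraries there are 16 sign patterns and the smallest p is 2 of 16, so the test could not reach 0.05. Tlr8 could not be tested, as the shams held no or 1 UMI, and it was at 6.73 and 3.66 CPM in female and male cells at 3 dpi and 6.02 and 3.79 at 14 dpi.

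The partners and effectors of the receptors in microglia were read from lists, as counts of called genes. Of the 5 adaptors, none was higher and 1 lower at 3 dpi (Ticam2, which links Tlr4 to Ticam1, log2 −1.05), and none was called at 14 dpi. Of the 8 partners, 2 were higher and 3 lower at 3 dpi and 2 higher at 14 dpi. Cd36, a lipid receptor that works with Tlr2, was at log2 4.06 and 1.78, and Lbp, the lipopolysaccharide carrier, at 4.93 (from 1 UMI in the sham) and 3.04. Ly96, the subunit of Tlr4 that holds lipopolysaccharide, was at −1.26 at 3 dpi, Ly86 at −1.71 and Unc93b1, which carries the endosomal receptors to their compartment, at −2.74. The last pair was higher again at 14 than at 3 dpi (1.06 and 1.99).

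Of the 14 kinases and ubiquitin ligases, 1 was higher and 6 lower at 3 dpi, and 1 higher and 3 lower at 14 dpi. Ikbke was the higher gene at both times (4.46 and 3.83). Irak2 (−1.82), Traf3 (−1.34), Tab2 (−1.48), Tab3 (−1.04), Tbk1 (−1.60) and Chuk (−1.41) were lower at 3 dpi, and Traf6 (−1.06), Tab2 (−1.13) and Tab3 (−1.05) at 14 dpi. Of the 7 transcription factors, 4 were lower at 3 dpi, Nfkb1 (−1.36), Rel (−1.80), Irf5 (−1.85) and Irf7 (−1.87), and Irf5 at 14 dpi (−1.02). Of the 6 inhibitors, 3 were higher at 3 dpi, Nfkbia (1.38), Tnfaip3 (2.06) and Sigirr (1.86), 1 was lower, Socs1 (−1.53), and none was called at 14 dpi. Of the IEGs 15 of 16 were higher at 3 dpi, and 4 were higher and 2 lower at 14 dpi.

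These counts stand beside 14.4% of all genes higher and 32.4% lower at 3 dpi, and 5.55% higher and 19.1% lower at 14 dpi. With TMM factors, which moved each ratio up by 0.46 and 0.57, 3 kinases (Irak2, Tab2 and Tbk1) and 3 transcription factors (Rel, Irf5 and Irf7) were still lower at 3 dpi, and Ticam2, Ly96, Traf3, Tab3, Chuk and Nfkb1 were not. At 14 dpi none of the kinases or transcription factors was then lower, and Irf7 was higher (1.22). The higher calls of Cd36, Lbp and Ikbke at both times, and of Nfkbia, Tnfaip3 and Sigirr at 3 dpi, were kept.

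The median log2 ratios of the lists at 3 dpi were −0.53 for adaptors, −0.58 for partners, −0.85 for kinases, −1.36 for transcription factors and 0.72 for inhibitors, beside −0.51 for all genes. At 14 dpi they were −0.81, −0.47, −0.68, −0.54 and −0.10, beside −0.54. Of the 3 other Toll-like receptors, Tlr12 was at 24.3 CPM in ActD sham microglia, 0.595 at 3 dpi and 8.64 at 14 dpi, and Tlr5, the flagellin receptor, at 3.25, 0.458 and 0.293. Both were called lower at both times, Tlr12 at 14 dpi not with TMM factors (−0.92), and Tlr11 had 3, 2 and 12 UMIs. With the standard protocol, where 6.83% of all genes were higher and 21.6% lower, 2 adaptors were higher (Myd88 1.07, Ticam1 1.39) and 1 lower (Sarm1 −2.07). Nfkbia (4.50), Tnfaip3 (5.57), Ikbke (2.88), Rel (1.97), Nfkb2 (1.46) and Nfkb1 (1.02) were higher as well, and Irf7 (−2.25), Ly86 (−1.37), Irak4 (−1.10) and Tlr12 (−1.01) lower, the last 3 not with TMM factors, with which Tollip (1.48) and Rela (1.05) were called higher.

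The genes most like each receptor were found by Pearson's r of log2 CPM over the 36 units among 8306 genes. The units share libraries, so r is a description. Tlr2 was most like Sat1 (0.92), Sirpa (0.91) and Rbm47 (0.88), and Cd14 most like Sat1 (0.88), Nlrp3 (0.87) and Sirpa (0.87). Tlr7 was most like Csf1r (0.87), the receptor microglia need to survive, Tlr3 like Atp8a1 (0.81), Tlr4 like Pfkfb4 (0.83), Tlr1 like Tbxas1 (0.81) and Tlr6 like Snx10 (0.74). Tlr8 was most like Clec4a1 (0.83) and Lyz2 (0.82), Tlr13 like Ptafr (0.87), and Tlr9, the sparsest, like Slc15a4 (0.77) and Unc93b1 (0.77).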

How the data were processed

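CD45 positive spinal cord cells were measured in 4 droplet 3′ libraries, 1 per group, and GEO's labels gave each group. The deposited matrices hold UMI counts per gene and barcode, made by the authors with Cell Ranger on mm10, and the matrix headers give version 3.0.1 for the standard sham and 3.1.0 for the ActD sham, with 3.0.1 at 3 dpi and 3.1.0 at 14 dpi. Each library held 2439 to 11631 barcodes. Barcodes with under 600 genes, over 10% mitochondrial UMIs or lineage coexpression of Itgam with lymphoid genes were left out. So were those with the highest Scrublet doublet scores (scanpy 1.11.5), 42 to 931 per library, a number set in advance from the size of the library. Cells of both shams, and of the ActD sham with the 2 injury libraries, were integrated and clustered in Seurat 5.3.0 (2000 features, 50 dimensions, resolution 0.6) without the receptors and pathway genes.

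A cluster in a library was named from at least 3 detected markers, with at least 20 cells. The naming score was made relative within each library after clusters and names were seen, and the first score is an alternative. The receptors, lists and markers were chosen with earlier results of these data known. UMIs were summed per class and library and scaled to CPM with exact Poisson 95% intervals, ratios had exact conditional Poisson intervals (Python 3.11.15, scipy 1.17.1), and shares had Clopper-Pearson intervals after thinning to 1000 UMIs. All cover counting error only, so depth sets their width but not the spread between mice. With no UMI, a level of up to 3 counts was allowed. Bounds and folds against it are stated as such. TMM factors were from edgeR 4.0.16 (R 4.3.3). On counts simulated from the Poisson model that the intervals assume, they covered the true ratio for 95.4% to 96.4% of genes over the 9 comparisons. There 93.2% to 100% of genes changed 4-fold were called. No spread between cells or mice was simulated, so this checks the calculation and not the calls. All 10 members were named, and other genes came from the lists, the 3 genes most like each member, or cluster leaders. Protein sequences, and promoters of Tlr4, Tlr7 and Cd14, were not used here. With 1 library per group no test between conditions was run, and the exact sign-flip test over 4 libraries was the one test.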

Additional observations from a re-analysis of the deposited data

Results flagged for a closer look

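A pair of effects pointed in opposite directions in different classes under the same contrast. With the standard protocol against ActD in the sham cord, Tlr7 had a log2 ratio of 1.21 in neutrophils and −1.04 in monocytes, a difference of 2.25. At 3 dpi against the ActD sham, Tlr8 had a log2 ratio of 5.14 in microglia and −1.23 in border macrophages, a difference of 6.37. With 1 library per condition neither difference was tested. The neutrophil value kept its call in 7 of 14 alternatives, and the microglial value rests on 2 UMIs in the sham.

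Clusters that got no name, and so entered no comparison or ranking of classes, held some receptors above every named class. For each value given below, the lower limit of the interval lay above the upper limits of all named classes with a UMI of that gene. This holds within the same library and grouping. Clusters 14 and 5 got no name for their low depth, with medians of 1188 to 1796.5 UMIs per cell. Cluster 8 got none because its leading genes included Spp1, an injury macrophage marker, and no microglial marker. Its best marker score was that of microglia in both shams, with all 10 microglial markers detected. Cluster 14 of the injury grouping, led by Gm42418, had Cd14 at 907 CPM (713 to 1137) and Tlr7 at 266 (167 to 403) in the ActD sham, and Tlr2 at 318 (248 to 401) and Tlr7 at 172 (122 to 237) at 14 dpi. Cluster 5 of the sham grouping, led by Jmjd1c, had Cd14 at 877 CPM (727 to 1049) and Tlr7 at 249 with ActD, and Tlr7 at 248 with the standard protocol. Cluster 8 of the sham grouping, led by Spp1 and Lpl, had Tlr2 at 134 CPM with ActD, and Cd14 at 3148 and Tlr2 at 452 with the standard protocol.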

How the results depend on the processing

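No paired analysis was possible because each group had 1 library, and for the same reason no replicate could be left out. Of 119 counts and tests recomputed under other settings 93 stayed near the main value and 26 moved. Of 20 under settings chosen after seeing the data 12 stayed near the main value and 8 moved. For counts this compares how many receptors were called, not which ones, and for the sex test it compares the sign. Of 497 recomputed ratios of called receptors, 403 kept the call and 94 lost it. In microglia, the 5 receptors called between protocols became 2 with TMM factors, 1 when merged without integration, 2 with Itgam and lymphoid cells kept and 2 in the clusters with P2ry12 among their 10 leading genes alone (chosen after seeing the data). The 5 called at 3 dpi became 3 at a minimum of 200 UMIs, 3 with the first naming score and 3 in those clusters (both chosen after seeing the data), and 2 after thinning. The 4 called at 14 dpi became 1 in those clusters. The 2 called between 14 and 3 dpi became 1 at 200 UMIs, 1 in those clusters and 1 after thinning. In neutrophils, the 4 called between protocols became 1 at 200 UMIs and 1 after thinning, and the 4 called between 14 and 3 dpi became 1 with TMM factors, 8 when merged, 8 with the looser cell filter, 7 with the first naming score, 7 in the Retnlg cluster alone (both chosen after seeing the data), 2 after thinning and 1 as a mean over cells. In border macrophages the 5 called at 3 dpi became 3 with TMM factors, 1 at 200 UMIs, 3 without doublet removal, 3 with Itgam and lymphoid cells kept, 0 after thinning and 3 as a mean over cells, and the merged clustering gave no value. In B cells the 1 called at 14 dpi became 2 with no UMI minimum, 0 at 200 UMIs, 3 with all 4 libraries clustered together, 2 without doublet removal, 3 with Itgam and lymphoid cells kept, and 0 in the Igkc cluster alone (chosen after seeing the data) and after thinning. The direction reversed for Tlr7 in neutrophils between protocols (−1.10, thinned), Tlr6 in border macrophages at 3 dpi (−1.24, thinned) and Tlr7 in B cells at 14 dpi (0.18, all 4 libraries clustered together). Fewer UMIs remain after thinning. The 200 UMI minimum leaves the ratios as they were and only restricts which receptors are tested. For the other alternatives the cause was not tested. For the sex test with at least 2 UMIs per call, the exact sign-flip p was 0.25 for Tlr7 and 0.875 for Tlr13. Low counts limit Tlr8, Tlr9 and all receptors in lymphoid cells.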
